A study of Drosophila melanogaster with 2 samples.

Results

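Far intronic peaks are the binding peaks of the GFP-tagged embryo protein whose summit lay inside a gene, in no annotated exon and more than 2000 bp from the nearest annotated start site of any gene. They were chosen by position alone, and 702 of the 4097 peaks in the authors' thresholded list met the rule (17.1%, 95% Wilson interval 16.0 to 18.3). The other thresholded peaks comprised 543 near intronic, 438 intergenic, 2311 promoter and 103 exonic peaks. A promoter peak here had its summit within 500 bp of a start site, and a near intronic peak lay in an intron between the promoter window and 2000 bp. Of 30000 pooled candidate peaks, 6873 met the same positional rule, and 6007 of these overlapped no thresholded peak.

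The material was whole embryos of Drosophila melanogaster aged 0 to 24 h, both sexes together, analysed as 2 biological replicates of 1 group by ChIP-seq (chromatin immunoprecipitation followed by sequencing) with an antibody against GFP. An artificial eGFP exon, carried by a MiMIC insertion in an intron, attached GFP to the endogenous protein in every animal, so the tagged protein was made wherever its own gene is active. The labels call the line and fusion Side, after the axon guidance gene side, and name Sidpn, the gene of a HES-type repressor, as the insertion target. Which gene was tagged is therefore not settled, and there was no untagged or second condition among the samples. Both replicates shared 1 control, and whole embryos mix all tissues, so a peak cannot be placed in a cell type.

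Introns of fly genes hold many enhancers, short stretches that bind transcription factors and act on a promoter at a distance. Genes that direct development often have long introns with several such elements, while housekeeping genes are compact and are read mainly from promoter elements such as those bound by DREF or M1BP. HES repressors such as the product of Sidpn are known to bind E-box-like sites, and Fork head and GATA proteins are factor families with well known roles in gut and blood development.

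The windows below hold the reference sequence from 100 bases before to 100 bases after the summits of 5 of the strongest far intronic peaks on the arms from which sequence is shown. They are given to show the kind of DNA at the centre of the strongest signals, on the plus strand of dm6 (RefSeq Release 6). Capitals mark any match, on either strand, to the Fork head motif TGTTTAC or to any of 4 short words. They were CACTGAGAG, its shortened form CACTGAG, the word CACAGTG and the word CAGTGTA. The words were picked after the sequences had been seen.
Tlk, X:3742098-3742298: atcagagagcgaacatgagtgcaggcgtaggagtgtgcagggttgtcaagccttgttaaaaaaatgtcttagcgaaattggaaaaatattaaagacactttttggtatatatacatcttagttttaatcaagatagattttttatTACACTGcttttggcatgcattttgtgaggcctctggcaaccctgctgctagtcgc
Raf, X:2297609-2297809: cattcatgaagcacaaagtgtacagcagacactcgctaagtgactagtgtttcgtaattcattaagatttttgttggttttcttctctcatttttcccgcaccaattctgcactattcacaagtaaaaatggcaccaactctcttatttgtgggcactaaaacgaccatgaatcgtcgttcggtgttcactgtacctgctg
CG32486, 3L:3060700-3060900: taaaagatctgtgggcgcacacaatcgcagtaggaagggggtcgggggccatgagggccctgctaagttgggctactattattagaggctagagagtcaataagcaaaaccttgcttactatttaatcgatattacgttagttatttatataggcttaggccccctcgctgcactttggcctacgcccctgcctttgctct
fz, 3L:14303948-14304148: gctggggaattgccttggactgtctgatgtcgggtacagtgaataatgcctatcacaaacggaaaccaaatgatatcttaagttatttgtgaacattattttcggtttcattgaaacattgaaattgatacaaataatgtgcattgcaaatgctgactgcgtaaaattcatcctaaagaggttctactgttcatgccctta
JIL-1, 3L:11084658-11084858: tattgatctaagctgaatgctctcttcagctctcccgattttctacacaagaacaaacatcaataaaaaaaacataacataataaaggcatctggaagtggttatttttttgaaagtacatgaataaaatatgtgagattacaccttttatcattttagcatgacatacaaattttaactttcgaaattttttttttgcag

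Only the window at Tlk held a capitalised match, and the other 4 held none, so these 5 peaks share no single one of these words. A second set shows the longest word, CACTGAGAG, with 15 bases on each side in the 6 strongest far intronic peaks that carry it on the arms from which sequence is shown. Each is written in the direction in which the word reads, with its strand on dm6, so that the bases beside the word can be compared.
pnt, 3R:23326397-23326435, plus: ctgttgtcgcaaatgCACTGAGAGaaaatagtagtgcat
aop, 2L:2163712-2163750, minus: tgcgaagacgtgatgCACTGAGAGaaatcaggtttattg
bves, X:21059087-21059125, plus: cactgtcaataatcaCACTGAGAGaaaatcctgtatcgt
CG43759, X:19018178-19018216, plus: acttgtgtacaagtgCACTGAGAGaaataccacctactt
aop, 2L:2164999-2165037, minus: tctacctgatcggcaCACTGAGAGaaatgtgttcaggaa
Lim1, X:8774159-8774197, plus: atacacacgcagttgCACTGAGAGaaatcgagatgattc

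In all 6 stretches the word was followed by AAA. The transcription factor genes pnt and aop, whose products are the Ets-domain activator and repressor of EGF receptor signalling, carried the word at 3 of these 6 summits.

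The far intronic class was a smaller part of the strong peaks than of the weak ones. In the authors' ranking by signal it made up 17.1% of the first 4097 pooled peaks and 23.8% of the other 25903. In replicate 1 alone it made up 16.2% of the first 4097 and 22.4% of the rest, and in replicate 2 17.9% and 25.3%. The direction was thus the same in both replicates. The first 4097 pooled peaks had the same number in each class as the thresholded list, so the pooled 17.1% repeats the opening share. Counted over candidates, 866 of 6873 far intronic candidates (12.6%, 95% interval 11.8 to 13.4) overlapped a thresholded peak, where 17.1% of all 30000 candidates did. The share was 16.5% of near intronic candidates, 11.7% of intergenic candidates, 28.0% of promoter candidates and 3.00% of exonic candidates. The far intronic share stood between those of exons and promoters and within 1 percentage point of that of intergenic sequence. An overlap also counts candidates that lie beside a thresholded peak. By rank alone, 10.2% of far intronic and 21.9% of promoter candidates were among the first 4097 pooled peaks. Intervals cover counting error only, and neighbouring peaks are not independent.

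The signal of far intronic peaks, in the authors' units, had a median of 122, with quartiles of 96.7 and 170 and a range from 81.6 to 893. Median signal was 131 for near intronic, 120 for intergenic and 124 for promoter peaks. On the log2 scale the median far intronic signal differed from that of promoter peaks by -0.026 in the pooled list, -0.037 in the first 4097 peaks of replicate 1 and -0.017 in those of replicate 2. These differences are small beside the SD of 0.60 (log2) among the far intronic peaks themselves. Their sign also turned, to 0.012, when promoter peaks were limited to summits within 200 bp of a start site. Both classes began at nearly the same lowest signal, 81.6 for far intronic and 81.5 for promoter peaks. Such a shared cut holds the medians together, so near-equal medians here do not show equal signal among candidates. The classes parted at the top of the ranking. Among the 100 strongest thresholded peaks 5 were far intronic (0.712% of far intronic peaks), against 20 near intronic (3.68%) and 64 promoter peaks (2.77%). Among the 1000 strongest, 147 were far intronic (20.9% of the class), against 25.3% of promoter peaks.

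At the boundaries of the rule, the far intronic peak closest to a start site lay 2004 bp away with a signal of 89.7, and the intronic thresholded peak just inside the boundary lay 1999 bp away with 91.9. The weakest far intronic peak had a signal of 81.6, and the strongest far intronic candidate below the threshold 81.5. The thresholded list had the same class counts and median signals as the first 4097 pooled peaks, so it acted as a cut on pooled signal. Near-equal signals on the 2 sides follow from such a cut.

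Most far intronic peaks were strong in both replicates. For 497 of them (70.8%, 95% interval 67.3 to 74.0) the best overlapping peak ranked within the first 4097 of both replicates, where 72.4% of all 4097 thresholded peaks did. The share of promoter peaks was 73.8%, within the interval of the far intronic share. A further 105 far intronic peaks were within the first 4097 of replicate 1 only, 92 within those of replicate 2 only and 8 within neither. No replicate 2 candidate overlapped 3 of them, and each overlapped a replicate 1 candidate. Over the 699 peaks with a candidate in both, the replicates' signals had a Spearman correlation of 0.565, given as a description. The thresholded list was itself derived from the lists of both replicates and the pool, and both replicates share the control. Replicate 1 signal was higher than replicate 2 signal by a median of 0.16 on the log2 scale, with an SD of 0.58 between peaks.

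**Figure D1:**
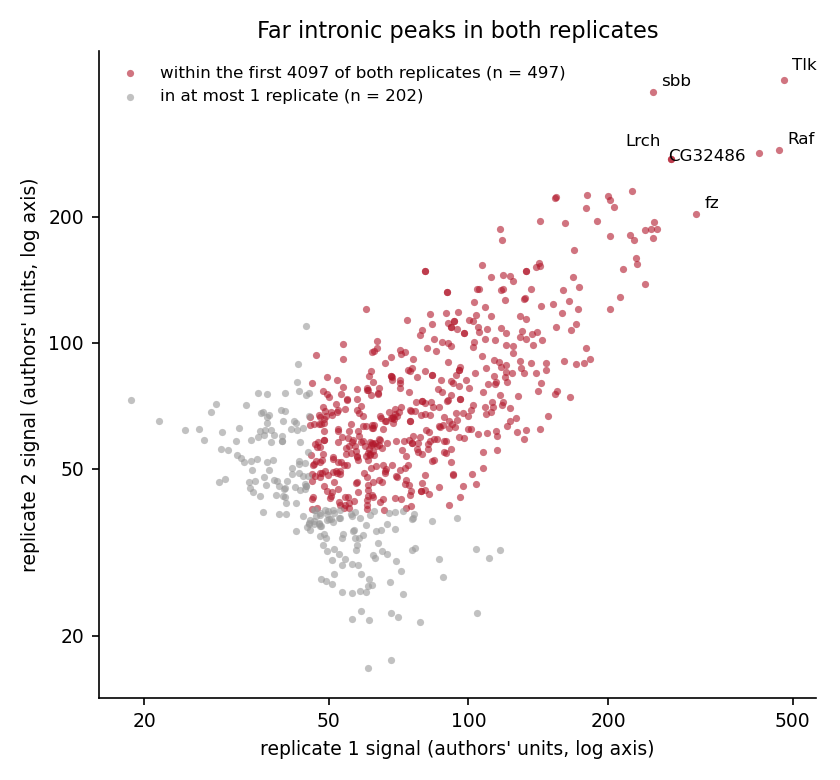
Signal of far intronic peaks in replicate 1 (horizontal axis) and replicate 2 (vertical axis), both in the authors' units on log axes; each point is 1 of the 699 peaks with a candidate in both replicates, red where it was within the first 4097 of both (n = 497). The strongest 6 peaks by pooled signal are named, and Tlk stands at the upper right with 479 in replicate 1 and 424 in replicate 2.

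Density fell with distance from start sites. Sequence that could hold a far intronic summit, called eligible intron here, covered 41.4 Mb, 31.0% of the chromosome arms, and held 16.9 far intronic peaks per Mb. Between 2 and 5 kb from a start site lay 347 peaks, 26.6 per Mb, between 5 and 10 kb 219 peaks at 19.9 per Mb, between 10 and 20 kb 97 peaks at 11.4 per Mb, and beyond 20 kb 39 peaks at 4.40 per Mb. Candidates thinned in the same order, from 239 per Mb nearest to 50.3 per Mb farthest. The share of candidates that overlapped a thresholded peak changed less, 13.7%, 13.2%, 9.56% and 10.1% in the same 4 bins. Median signal was 125, 124, 116 and 120. The median far intronic peak lay 5039 bp from a start site and the farthest 49838 bp.

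**Figure D2:**
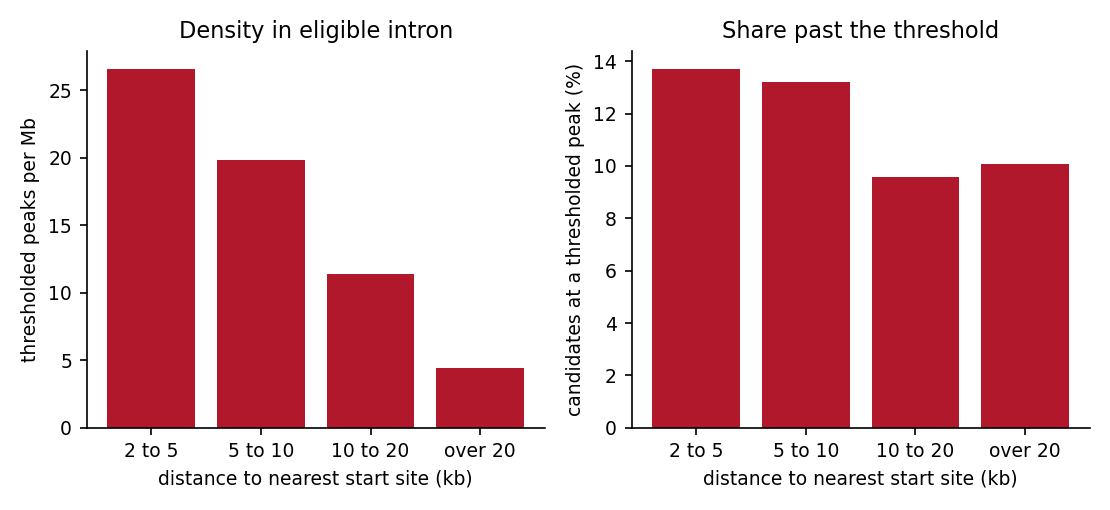
Far intronic thresholded peaks per Mb of eligible intron (left) and the percentage of far intronic candidates that overlap a thresholded peak (right) in 4 bins of distance to the nearest start site, in kb. Density goes down from 26.6 to 4.40 per Mb over the 4 bins, and the share of candidates at a thresholded peak stays between 9.56% and 13.7%.

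Within introns, 274 far intronic peaks (39.0%) lay in the first intron of their host gene, the gene that contains the summit, while first introns made up 21.1% of the eligible bases of coding genes. The 39.0% is over all 702 peaks, of which 18 lay in noncoding hosts. Intron order was not separated from distance to start sites, with which density fell. The second intron held 177 and later introns 251. The intron had a median length of 12697 bp, and the median summit lay 2923 bp from the nearest exon. The nearest start site belonged to the host itself for 480 peaks (68.4%) and to another gene for 222. Peaks were often close together: 250 (35.6%) had another far intronic peak within 5 kb on the same arm, and 14 pairs of neighbours overlapped, leaving 688 separate regions.

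All large arms held far intronic peaks. The density was 20.7 per Mb on X (166 peaks), 18.4 on 2L (120), 17.9 on 2R (128), 15.2 on 3L (123) and 14.7 on 3R (165). On X, far intronic peaks were 23.2% of thresholded peaks, against at most 16.8% on each of the other 4 large arms. The share of far intronic candidates on X that overlapped a thresholded peak, 13.7%, was above that of 3L (10.7%) and below that of 2R. Chromosome 4, the small and largely heterochromatic autosome, had 0.442 Mb of eligible intron and 26 far intronic candidates. Of these 0 overlapped a thresholded peak, where 6.72% of its 238 candidates of all classes did. A count of 0 of 26 allows a share of up to 11.5% when 3 counts are taken as the limit, and up to 12.9% by the Wilson interval. Annotated transposable elements, mobile DNA that short reads often cannot be placed in, made up 8.33% of eligible bases and held 1 far intronic summit (0.142%), against 18 summits of far intronic candidates below the threshold (0.300%).

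The 702 peaks fell in 410 host genes, 399 of them protein-coding. Of 4221 protein-coding genes with any eligible intron, 9.45% hosted at least 1. Most hosts had 1 peak (257 genes), 85 had 2 and 68 had 3 or more. Those 68 genes together held 275 peaks, 39.2% of all. Hosting varied with intron length: 2 of 1844 coding genes with up to 1 kb of eligible intron were hosts (0.108%), against 31.3% of the 572 genes with over 20 kb.

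Coding hosts also had promoter peaks more often than other coding genes with eligible intron. A thresholded promoter peak lay at 50.4% of the 399 hosts and at 940 of 3822 other genes (24.6%). With each replicate's own first 4097 peaks the shares were 50.9% of hosts and 25.5% of other genes in replicate 1, and 45.4% of hosts and 23.4% of other genes in replicate 2. Among genes with 5 to 20 kb of eligible intron they were 77 of 154 hosts and 22.9% of other genes, and among genes with over 20 kb 55.3% of hosts and 18.6% of other genes. The gap was thus present within classes of similar intron length and in both replicates.

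The strongest far intronic peak lay in intron 4 of Tlk (FBgn0283657), which encodes the Tousled-like kinase of chromatin assembly, at X:3742012-3742389. Its signal was 893 in the pooled list (rank 25), 479 in replicate 1 and 424 in replicate 2. The second lay in Raf (FBgn0003079), the kinase that relays the signal of Ras, at X:2297544-2297867, with 744 pooled, 467 in replicate 1 and 289 in replicate 2. Both were among the 64 strongest peaks of each replicate, and the Raf peak was higher in replicate 1, by less than 1 SD from the median difference of all far intronic peaks.

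The peak in CG32486 (3L:3060643-3060949), had 703 pooled, 424 in replicate 1 and 284 in replicate 2. In sbb (2R:18337072-18337331), a gene for a nuclear corepressor also called brakeless, the values were 636 pooled, 250 in replicate 1 and 398 in replicate 2. The sbb peak was thus stronger in replicate 2, unlike those in Raf and CG32486. Lrch, a gene for a protein of leucine-rich repeats, had 548 pooled, 274 in replicate 1 and 276 in replicate 2, nearly equal values. The peak in fz (3L:14303925-14304198), a receptor of Wingless and of planar polarity, had 513 pooled, 310 in replicate 1 and 204 in replicate 2.

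The next 14 by signal ranged from 459 to 386 pooled, and their ranks were 302 or better in replicate 1 for all but CG12769 (307) and 323 or better in replicate 2 for all. Several of their hosts act on chromatin or transcription: JIL-1 (459), a histone H3 kinase, Su(Tpl) (451), the ELL elongation factor, Gug (427), the Atrophin corepressor, and gpp (386), the Dot1 histone methyltransferase. Others are nuclear receptors, signalling genes and their adaptors: Hr4 with 2 peaks (429 and 403), S (413), which moves the EGF receptor ligand Spitz, N (403), the Notch receptor, mnb (429), a DYRK kinase, ush (418), a cofactor of GATA proteins, and rdx (394), an adaptor for ubiquitin ligation of the Hedgehog effector Ci. The hosts babos (439), CG34417 (438) and CG12769 (387) complete the set.

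Some hosts held whole series of far intronic peaks. Raf had 8 peaks in 24.5 kb of eligible intron, with pooled signals from 84.7 to 744 and a median of 218. All 8 lay in its second intron of 43637 bp, 6 of them within the first 4097 of both replicates, and no thresholded promoter peak lay at Raf. The gene sbb also had 8 (86.2 to 636, 6 strong in both replicates), and jing, a zinc finger gene, had 8 of lower signal (81.8 to 164, 5 strong in both). All 3 hosts thus carried peaks near the threshold beside their strongest ones.

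Hr4, a nuclear receptor gene of the ecdysone cascade, had 7 peaks from 82.8 to 429, of which 4 were strong in both replicates. Its weakest peak had 60.8 in replicate 1 and 16.7 in replicate 2, ranks 2569 and 14822. That peak rested mainly on replicate 1. The 7 peaks of kirre (91.4 to 367), a cell adhesion gene of myoblast fusion, lay in 288 kb of eligible intron and were all strong in both replicates. The 7 peaks of tara, a gene for a nuclear coregulator, ranged from 83.7 to 163, with 4 strong in both.

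The gene shn (schnurri), a zinc finger repressor that Dpp signalling uses, had 6 peaks from 116 to 280, all strong in both replicates. Its 2 strongest shared 1 replicate peak, with 133 in replicate 1 and 148 in replicate 2. These 2 peaks are therefore not separate observations in the replicates. Eip75B, an ecdysone-induced nuclear receptor gene, had 6 (86.3 to 231, 5 strong in both), Tet 6 (85.8 to 145, 3 in both) and PRAS40, a gene of the TOR pathway, 6 in 12.1 kb (82.2 to 174, 4 in both).

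**Figure D3:**
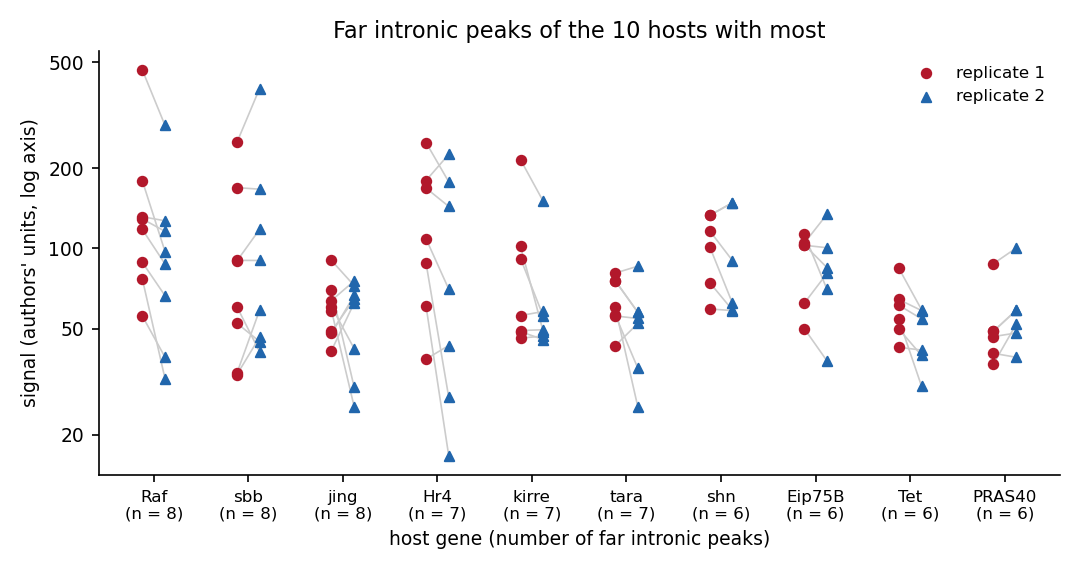
Signal of each far intronic peak in replicate 1 (red circles) and replicate 2 (blue triangles), in the authors' units on a log axis, for the 10 hosts with most far intronic peaks; lines join the values of 1 peak. Raf, sbb and Hr4 reach well above 200 in a replicate, while all peaks of jing, tara, Tet and PRAS40 reach at most 100.3, at PRAS40 in replicate 2.

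Described by function, genes of signalling pathways hosted far intronic peaks at higher density than coding genes as a whole, where the density was 16.3 per Mb. The gene lists were drawn up with earlier results of these data known, so their densities are a description only. Of 20 EGF receptor pathway genes with eligible intron 11 were hosts, where 9.45% of all coding genes were, and they held 30 peaks at 84.8 per Mb, with 82.0 in replicate 1 and 84.8 in replicate 2. This 9.45% is not a like background, as median eligible intron was 11.6 kb in the list and 1.64 kb in all coding genes. Of coding genes with 5 to 20 kb of eligible intron 18.3% were hosts, and of those with over 20 kb 31.3%. Among the 16 lists, all but chromatin regulators had a higher median than all coding genes. The hosts in the EGF receptor list run from ligand to nuclear effector. They include vn (1 peak, 222), a secreted ligand, S (3 peaks, up to 413), ru (87.5), a Rhomboid protease that cuts ligands, aos (1 peak, 380), the secreted antagonist, and Raf. The nuclear end had pnt (2 peaks, up to 271), aop (2, up to 267), edl (120), a regulator of both Ets proteins, and cic (5, up to 136), a repressor that the pathway switches off. The list also held spri (3, up to 147), a Ras-binding protein, and cv-2 (3, up to 226). The last is better known as a BMP-binding protein, and without it the density was 80.7 per Mb. Raf alone gave 8 peaks, and without Raf the density was 66.8 per Mb. Of the list's 156 far intronic candidates 24.4% overlapped a thresholded peak, against 12.5% for all coding genes. Candidates were also denser in these genes, at 441 per Mb, against 161 for all coding genes.

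In single peaks of this pathway, aos (3L:16480408-16480692) had 380 pooled, 223 in replicate 1 and 181 in replicate 2. The strongest peak of S had 413 pooled, 202 in replicate 1 and 219 in replicate 2. The word-bearing peak of pnt had 271 pooled, 167 in replicate 1 and 107 in replicate 2. Those of aop had 267 and 189 pooled, 183 and 108 in replicate 1, and 91.7 and 76.6 in replicate 2. All 3 peaks of pnt and aop were higher in replicate 1, and all 3 were within the first 4097 of both.

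Dpp pathway genes, of the fly BMP signal, had 20 far intronic peaks in 8 of 16 genes, at 86.3 per Mb (82.0 in replicate 1 and 86.3 in replicate 2). They covered the ligand dpp (1 peak, 203), the extracellular antagonist sog (2, up to 255), the glypicans dlp (2, up to 237) and dally (1, 143), the receptor tkv (4, up to 140), the inhibitory Smad Dad (1, 290), cv-2 and shn. The Dad peak had 140 in replicate 1 and 152 in replicate 2. Without shn the density was 69.3 per Mb. Of 102 candidates, at 440.1 per Mb, 25.5% overlapped a thresholded peak.

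Wingless and Hedgehog genes had 13 peaks in 7 of 22 genes, at 37.4 per Mb (34.5 and 40.3 in replicates 1 and 2). Beside fz they included nkd (3, up to 172), an antagonist of Wingless, ptc (141), the Hedgehog receptor, and arr (115), a Wingless coreceptor. Hippo and growth control genes had 10 peaks in 7 of 18 genes at 48.9 per Mb, but 53.7 and 39.1 in replicates 1 and 2. They were led by ex (232), an upstream Hippo component, InR (2, up to 225), the insulin receptor gene, Myc (146) and kibra (2, up to 135). Notch pathway genes had 7 peaks in 3 of 14 genes: N (2, up to 403), mam (4, up to 208), the coactivator, and fng (102), a glycosyltransferase. Their density, 33.8 per Mb, was 43.4 and 28.9 in replicates 1 and 2 and 18.6 without mam. In these lists the density of peaks went with a density of candidates of 414 per Mb (Wingless and Hedgehog), 366 (Hippo and growth control) and 357 (Notch). The share of candidates that overlapped a thresholded peak was 10.4%, 16.0% and 13.5% in the same order, the first of them below the 12.5% of all coding genes.

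The strongest peak in N (X:3162371-3162688) had 403 pooled, 228 in replicate 1 and 176 in replicate 2. Ecdysone response genes had 18 peaks in 5 of 14 genes at 39.7 per Mb (46.3 in each replicate). They were Hr4, Eip75B, ImpL2 (378), a secreted antagonist of insulin-like peptides, E23 (2, up to 214), an ABC transporter gene, and ftz-f1 (2, up to 113), a nuclear receptor gene. Without Hr4 the density was 27.2 per Mb, so much of this list's density lay in 1 gene. Chromatin regulators had 12 peaks in 5 of 25 genes at 55.2 per Mb, of which jing held 8, and 32.1 without it. The other 4 were trx (328), a histone methyltransferase of the Trithorax group, Psc (264) and ph-p (115), Polycomb group genes, and psq (96.8), a gene for a pipsqueak-domain DNA-binding protein.

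Among tissue lists, gut, fat body and hemocyte factors had the highest density, 63.1 per Mb, with 15 peaks in 7 of 16 genes and 58.9 and 63.1 in replicates 1 and 2. These were led by ush (5, up to 418), pnt, Pvf3 (4, up to 186), a growth factor gene, and cad (186), a homeobox gene of the hindgut. Genes of trachea and epidermis had 14 peaks in 7 of 22 genes at 38.2 per Mb, 27.3 in each replicate, led by grh (348), rib (204), pyd (5, up to 164) and tkv. Neuroectoderm and neuroblast factors had 7 in 4 of 13 genes at 23.1 per Mb, with grh, brat (148), hth (4, up to 115) and klu (106). Without hth their density was 15.8 per Mb, below that of all coding genes, and 6.86% of their candidates overlapped a thresholded peak. Mesoderm and muscle genes had 5 in 4 of 24 at 17.0 per Mb (Mef2 2 peaks up to 222, how 174, nau 134, mbc 111), close to all coding genes.

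In the thresholded list, axon guidance and adhesion, neuronal differentiation, RNA-binding, ion channel and Hox genes were below the density of all coding genes. Axon guidance and adhesion genes had 32 peaks in 17 of 48 genes but also 2.44 Mb of eligible intron, at 13.1 per Mb (11.9 and 12.7 in replicates 1 and 2). They were led by kirre (367), Fas3 (2, up to 206), fra (2, up to 196), the Netrin receptor, and Ten-a (3, up to 173). Neuronal differentiation factors had 8 in 6 of 28 at 10.2 per Mb in the thresholded list, against 14.0 and 21.6 in replicates 1 and 2, so that the value depended on the list. They were led by ct (205), Lim1 (173), bab1 (2, up to 135) and bab2 (130), all genes of transcription factors. RNA-binding regulators had 13 in 8 of 22 at 9.22 per Mb (shep 2 peaks up to 290, Rbfox1 2 up to 269, how 174, brat 148). Ion channel and synaptic release genes had 3 in 3 of 28 genes at 3.77 per Mb, 5.02 and 2.51 in replicates 1 and 2: Shal (134), Ih (115) and Ca-alpha1T (85.2). In the axon guidance, neuronal differentiation and ion channel lists, candidates lay at 150, 198 and 37.7 per Mb. All coding genes had 161. In the same order, 10.9%, 6.41% and 10% of candidates overlapped a thresholded peak, against 12.5% for all coding genes. Median eligible intron was 31.8, 21.5 and 25.1 kb, against 1.64 kb in all coding genes. Whether candidate density or intron length accounts for these low peak densities was not tested. Hox genes had 3 in 3 of 8 at 12.6 per Mb, but 8.41 and 4.21 in replicates 1 and 2: lab (105), Ubx (92.1) and Antp (82.1), none of which ranked within the first 4097 of both replicates. Their density over that of all coding genes was 0.774, and 0.245 without replicate 1. These Hox values depend on the rule that gives a summit to the shortest coding gene over it. The span of CG46458 lies within that of Antp, and its 4 peaks (117 to 223) were all strong in both replicates. They also lie in introns of Antp but were counted for CG46458 alone, while the shared intron bases were counted for both genes.

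**Figure D4:**
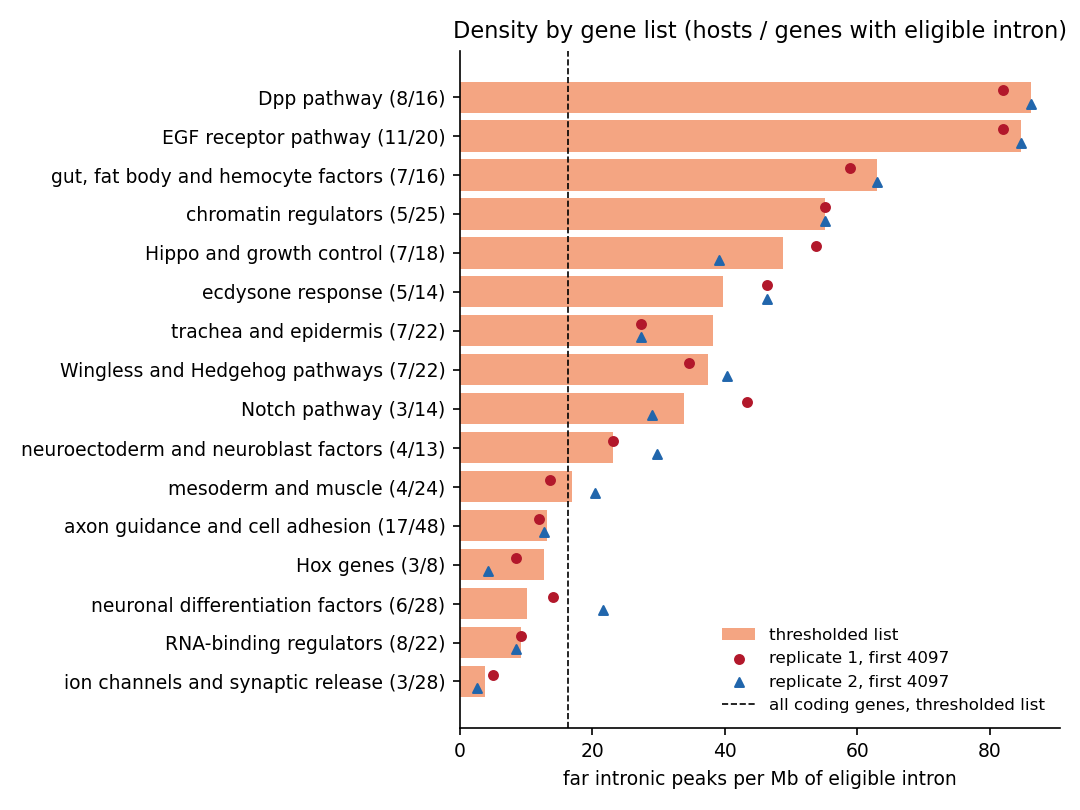
Far intronic peaks per Mb of eligible intron for 16 gene lists; bars give the thresholded list, circles and triangles the first 4097 peaks of replicates 1 and 2, the dashed line all coding genes (16.3 per Mb), and the numbers after each name the hosts and the genes with eligible intron. Dpp and EGF receptor pathway genes stand above 80 per Mb in all 3 lists of peaks, and ion channel genes lie at 5.02 or less.

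At the 2 genes the labels can mean, side had 1 far intronic peak in 46.0 kb of eligible intron, where 0.779 would lie at the mean density. Its signal was 122, with ranks of 2449 and 2234 in replicates 1 and 2. Sidpn has no eligible intron and so could hold none.

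The DNA at far intronic summits was richer in A and T than its surroundings. Median GC content within 100 bp of the summit was 37.3%, against 41.3% at far intronic candidates below the threshold, 40.3% in 197030 windows of the same length tiled over eligible intron and 39.3% at promoter peaks. Near intronic (36.8%) and intergenic (37.8%) peaks had similar values. GC content was 37.8% in the first 4097 peaks of replicate 1 and 36.8% in those of replicate 2.

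Of 36 motifs looked for on either strand in the 100 bp to each side of the summit, 20 were more frequent at far intronic summits than in tiled windows and 16 less frequent. For 6 the whole interval of the far intronic share lay above the tiled share and for 3 below it, and the 36 intervals were not adjusted for their number. Tiled windows were not matched to the summits in GC content (40.3% against 37.3%) or in transposable elements. Whether base composition accounts for these motif ratios was not tested. The Fork head motif TGTTTAC had the highest ratio. It was found at 75 summits (10.7%, 95% interval 8.61 to 13.2), against 6.09% of candidates below the threshold, 4.08% of tiled windows, 6.92% of promoter peaks, 6.63% of near intronic and 5.48% of intergenic peaks. In the replicates' own lists the share was 9.19% and 10.9%. Its matches lay more often near the summit. Of 84, 23 lay within 20 bp and 24 between 20 and 40 bp, against 9 in the outermost bin from 80 bp on. Candidates below the threshold showed a shallower decline, with 93, 92, 78, 69 and 61 matches in the 5 bins from the summit outwards. A decline was thus not particular to the thresholded peaks, though it was steeper there.

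For the GATA sites, the shares were above those of tiled windows and of candidates below the threshold. TGATAA and AGATAA were at 17.7% and 15.4% of far intronic summits, against 12.5% and 11.6% of tiled windows and 13.9% and 12.7% of candidates below the threshold. Near intronic peaks had them at 20.1% and 17.1%, within the far intronic intervals. The E-box CATATG, a site of Twist, was at 8.97% against 5.96% of tiled windows and 7.16% of candidates below the threshold, the last within its interval, and near intronic peaks had 10.3%. GAGAG, the core of the GAGA factor site, was at 27.4% against 21.5%, but candidates below the threshold had 25.9%. The longer repeat GAGAGAGA was at 2.28% against 1.27%, and the candidates below the threshold had 2.68%. For both GAGA motifs the candidates below the threshold were thus within the interval of the far intronic share.

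Motifs of housekeeping promoters were less frequent at far intronic summits than at promoter peaks, as they were at the other peaks away from promoters. The DREF site TATCGATA was at 1 far intronic summit (0.142%), against 7.92% of promoter peaks, and the M1BP motif GGTCACAC at 0.427% against 5.45%. The BEAF-32 core CGATA, which lies within the DREF site, was at 22.8% against 40.4% of promoter peaks. Near intronic peaks had DREF at 0.184%, M1BP at 0.552% and BEAF-32 at 114 of 543 summits, and intergenic peaks had the 3 at 0.913%, 0.457% and 21.7%. None of these 3 differed from tiled windows beyond its interval. The 3 motifs whose whole interval lay below the tiled share were the Ets site CCGGAA (1.99% against 4.81%), TAATCC, a Bicoid and Otx site (3.99% against 6.48%), and the Tramtrack core AGGAT (14.7% against 22.1%). Of these only the Ets site was also less frequent than at candidates below the threshold (4.36%) by more than its interval, and near intronic peaks had it at a similar 2.39%.

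The sites that HES repressors are known to bind did not stand out. The E-box CACGTG was at 2.28% of far intronic summits, against 2.80% of candidates below the threshold and 2.21% of tiled windows, and CACGCG at 3.70% against 4.36% and 3.01%. Both tiled shares lay within the interval of the far intronic share. CACGTG rested on 16 peaks and was at 2.11% in the list of replicate 1 and 1.36% in that of replicate 2. Its ratio to tiled windows, 1.03, was 0.617 without replicate 1 and 1.84 among the 1000 strongest peaks, and that of CACGCG, 1.23, was 0.452 among the 1000 strongest.

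**Figure D5:**
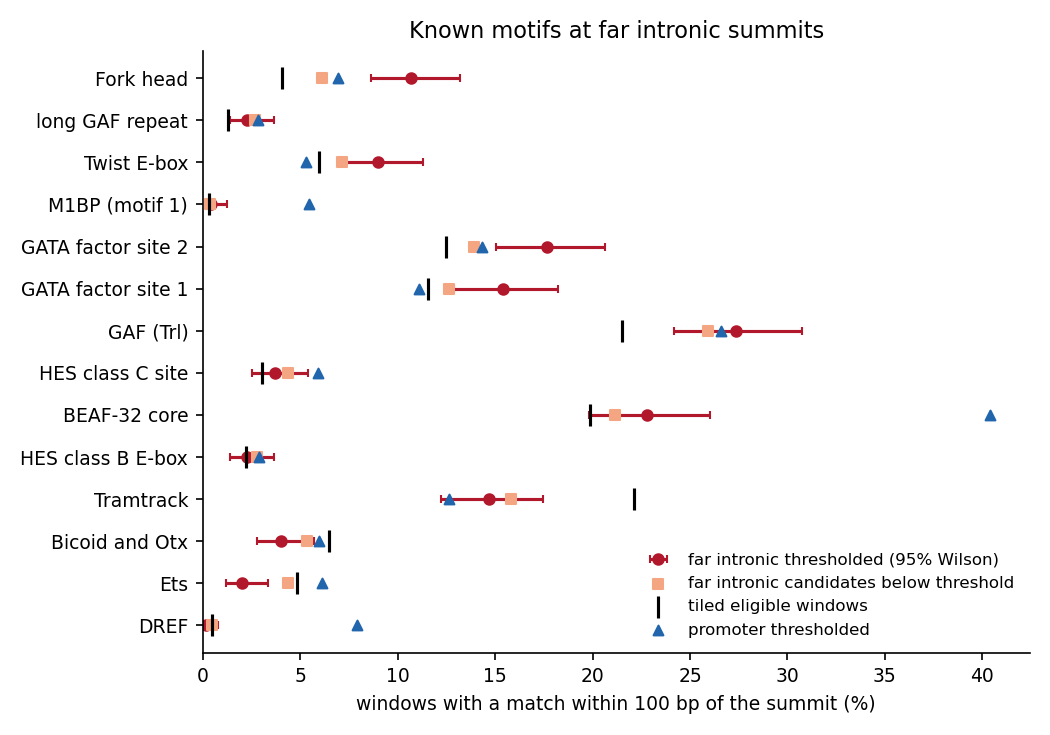
Share of windows, 100 bp to each side of the summit, with a match to a known motif, in percent; red circles are far intronic peaks with their 95% Wilson interval, squares far intronic candidates below the threshold, black ticks tiled windows and triangles promoter peaks. Motifs are ordered by the ratio to tiled windows, from Fork head at the top (10.7% against 4.08%) to DREF at the bottom (0.142% against 0.445%).

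The 4 words marked in the sequences were chosen because they recurred in these windows, so their frequency is a description of how they were picked. CACTGAGAG was at 25 far intronic summits (3.56%), against 0.766% of candidates below the threshold, 0.231% of tiled windows and 0.736% of promoter peaks. In the replicates' own lists it was at 3.61% and 3.68%. The shorter CACTGAG, contained in it, was at 7.98% against 1.79% of tiled windows, CACAGTG at 8.97% against 2.22% and CAGTGTA at 10.3% against 1.96%. At least 1 of the 4 was at 161 far intronic summits (22.9%), 21.4% of near intronic and 22.6% of intergenic peaks, against 12.7% of promoter peaks, 11.7% of far intronic candidates below the threshold and 5.61% of tiled windows. They were thus about as frequent at the other peaks away from promoters.

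The positions of the words differed. The 25 matches of CACTGAGAG were spread almost evenly, with 4, 4, 6, 6 and 5 in the 5 bins from the summit outwards. The matches of CACAGTG and CAGTGTA lay beside the summit more than on it. For CACAGTG 3 of 73 matches lay within 20 bp of the summit and 24 each in the bins from 40 to 60 and from 60 to 80 bp, and for CAGTGTA 8 of 78 within 20 bp and 29 from 60 to 80 bp. Of 24 occurrences of CACTGAGAG with their flanks inside the window, A followed the word in 24, 24 and 23 cases at each of the next 3 bases in turn. In 430 tiled occurrences the shares were 70.9%, 71.2% and 70.9%. The 25 word-bearing peaks lay in 23 host genes, aop and cv-c having 2 each, and 19 of them (76.0%) were within the first 4097 of both replicates. The strongest was in babos, with 439 pooled, 256 in replicate 1 and 187 in replicate 2, followed by shn, pnt, aop and Psc.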

How the data were processed

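Members and lists were chosen with earlier results of these data known. Per the labels, 2 biological replicates of 1 embryo group were profiled. The deposited lists, on dm6, give each peak's position, summit and signal. Signal is a value of the authors' caller without a stated scale, used only to rank and describe peaks. Candidate lists of 30000 peaks were made per replicate and for the pool, and the list thresholded by IDR, the irreproducible discovery rate, was derived from these 3 lists, per the deposited file records. The aligner, the peak caller, the IDR threshold and how deeply each library was sequenced were not given in the sources used here; the dm3 lists were not used, and alignments and tracks were not analysed here.

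Summits were placed on Ensembl release 115 genes (annotation 6.54; 17896 genes, 35203 transcripts) without pseudogenes and transposable elements, with Python 3.11.15, numpy 2.4.6, pandas 2.3.3 and matplotlib 3.10.9. Peaks matched where they overlapped by at least 1 bp; the best match was that of highest signal, and ranks were by signal. The host was the shortest protein-coding gene over the summit, otherwise the shortest gene. Eligible intron was counted within each gene's own introns, so overlapping genes share bases. Of 422 listed symbols in 16 lists, 8 matched no single gene. A further gene list and the sequence at 1 peak are not reported here. Named genes were the hosts of the 20 strongest peaks, the 10 hosts with most peaks, side and Sidpn, and up to 4 hosts of highest signal per list; other hosts named in the 2 signalling lists of highest density and in the chromatin and ecdysone lists, and at the word-bearing peaks, were chosen after their values were seen. With 1 group no test was made: values are counts, medians and shares with 95% Wilson intervals, beside each replicate's own values. Classification, hosts and motif search were tested on simulated data. Alternatives changed the distance, start sites, gene set, overlap, windows and number of peaks, or left out a replicate.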

Additional observations from a re-analysis of the deposited data

How the results depend on the processing

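Of 62 recomputed main values, 45 kept within 1.5 times (counts), within the 95% interval (shares) or within the SD of the replicates (other values). With a distance of over 1000 bp density was 20.4 per Mb and the log2 signal difference from promoter peaks -0.0043. With over 5000 bp there were 355 peaks, 226 hosts, 12.5 peaks per Mb, a signal difference of -0.041 and 11.7% of candidates at a thresholded peak. With the outermost start site of each gene alone the difference turned to 0.020 and the candidate share was 14.2%, and with promoter summits within 200 bp the difference was 0.012, so no direction in signal held. Among the 1000 strongest peaks 147 were far intronic in 123 hosts, and the difference was -0.23. With an overlap of 50% of both peaks 52.1% were strong in both replicates and 11.5% of candidates overlapped a thresholded peak. Median GC was 34.7% within 50 bp and 40.6% within 200 bp of the summit. Leaving out either replicate gave 664 and 733 peaks, 392 and 435 hosts and signal differences of -0.037 and -0.017. The density of neuronal differentiation factors over that of all coding genes, 0.624 in the thresholded list, was 1.26 without replicate 1 and 0.904 without replicate 2, and the cause was not tested. EGF receptor and Dpp pathway genes stood between 4.13 and 10.1 times the density of all coding genes in every setting run for them, and Fork head between 1.92 and 3.59 times the tiled share. No paired analysis was possible because the labels give 1 group. Depth is unknown, so no floor on weak peaks could be set.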
